A study of Rattus norvegicus with 46 samples.

Results

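Mbp, Mog, Mag, Mobp, Cnp, Cldn11 and Mal are genes of the oligodendrocyte, the cell that wraps axons of the brain in myelin. They were followed on every usable array of the series as the probe sets whose only symbol in the platform table was 1 of these names. The 7 genes were read by 12 of the 15866 probe sets that are not Affymetrix controls, and all 12 were among the 11106 that passed the filter on dim signals. Each gene is given by its probe set with the highest mean intensity. The other 5 are 1 further probe set each for Mbp, Cnp and Cldn11 and a pair for Mobp, called here Mobp-b and Mobp-c.

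The animals were male F344 rats, an inbred strain, aged 11 to 12 weeks. Each was given vehicle or chlorpyrifos once and was killed 96 hours later. Chlorpyrifos is an organophosphate insecticide, and its oxon metabolite blocks acetylcholinesterase. A piece of frontal lobe of each animal gave the RNA for 1 Affymetrix array. In experiment A, 3 vehicle animals, 3 at 1 mg/kg, 5 at 10 mg/kg and 3 at 50 mg/kg were used. Experiment B held 4 vehicle animals, 3 at 0.5 mg/kg, 1 at 5 mg/kg and 3 at 30 mg/kg. In experiment C, 3 vehicle animals, 4 at 1 mg/kg, 3 at 5 mg/kg and 4 at 10 mg/kg were used. No genetic change was involved. What limits the material is that each piece holds whatever cells the cut took.

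Compact myelin is a stack of membrane layers. Myelin basic protein, the product of Mbp, holds the cytoplasmic faces of these layers together, and Mobp encodes another small basic protein of compact myelin. The proteins of Mog and Mag sit on the outer and the innermost surface of the sheath, Cnp encodes an enzyme of its uncompacted parts, Cldn11 the claudin of its tight junctions, and Mal a proteolipid of membrane trafficking. Oligodendrocytes make these products together as they mature, under transcription factors that include SOX10 and MYRF, and white matter holds far more of them than grey matter.

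Before the results, some arrays need a remark. The deposited table holds 46 arrays, and for 7 of them the order of the rows does not match that of the remaining 39 (median correlation with other arrays -0.0042 to 0, against 0.942 to 0.969), so those 7 were not used. Among those 7 were the arrays of animals 1 and 2 at 30 mg/kg in experiment C, the only ones of that dose there. In experiment B, a further line in the labels of the vehicle arrays names 1 mg/kg, against the titles, which were followed. In experiment C the labels call 3 arrays a first repeat without saying of what, those of vehicle animal 1 and of animals 2 and 3 at 10 mg/kg. The array of animal 1 at 1 mg/kg in experiment C stands apart in its controls. Its ratio of 3′ to 5′ signal, used as a sign of RNA quality, was 4.72 for actin and 2.42 for GAPDH, while the other arrays had 1.23 to 2.15 and 1.01 to 1.34. The main results that include it are given with and without it.

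The 7 genes lie on 7 chromosomes of the rat assembly GRCr8, so they do not share a locus. Mag lies on chromosome 1 (95275728 to 95291133), Cldn11 on 2 (114136234 to 114149539), Mal on 3 (135317664 to 135341423) and Mobp on 8 (128747117 to 128777238). Cnp lies on chromosome 10 (86011504 to 86018063), Mbp on 18 (78130652 to 78241174) and Mog on 20 (1514110 to 1528716). Sequence upstream of 3 of the 7 genes, whose windows hold the motifs marked, is shown, taken from RefSeq for GRCr8. The levels of the 7 genes moved together from array to array, as described below. Any part of these motifs in that was not tested. The first and the second are upstream of Mag (chr1:95291132-95291294, minus strand) and of Cnp (chr10:86011254-86011503, plus strand), and capitals mark CTGGCAC, a form of the motif bound by MYRF. The last is upstream of Mobp (chr8:128746982-128747117, plus strand), where capitals mark the reverse strand form of the SOX core motif ACAAAG.
Mag: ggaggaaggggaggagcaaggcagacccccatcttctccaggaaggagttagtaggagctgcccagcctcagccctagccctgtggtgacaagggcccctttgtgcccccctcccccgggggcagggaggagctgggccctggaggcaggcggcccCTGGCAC
Cnp: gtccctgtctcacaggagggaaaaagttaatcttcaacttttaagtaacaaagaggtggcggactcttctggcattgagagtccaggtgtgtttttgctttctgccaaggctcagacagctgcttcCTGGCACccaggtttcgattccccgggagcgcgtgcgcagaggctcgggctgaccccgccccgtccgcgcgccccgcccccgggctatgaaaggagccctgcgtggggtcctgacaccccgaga
Mobp: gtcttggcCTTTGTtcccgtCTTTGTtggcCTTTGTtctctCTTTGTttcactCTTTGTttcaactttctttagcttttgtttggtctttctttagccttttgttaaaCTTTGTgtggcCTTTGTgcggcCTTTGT

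CTGGCAC occurred once in each of the first 2 sequences. An exact run around it, CCTGGCACCCAGG, was common to the full windows of both genes, and its last bases in Mag lie past the end of the stretch shown. That run of 13 bases occurred in 4 of 33469 RefSeq windows of 250 bases before a start site (0.012%), and CTGGCAC itself in 3.78% of them. The 4 include the windows of Mag and Cnp. The run was picked as the longest exact match between them, so its rarity is not a test. The window of Mal held the overlapping run TGGCACCCAGGGG in common with Mag, picked in the same way, and CTGGCAC on the other strand. The Mobp window held 8 matches to ACAAAG, all on the reverse strand. A match to ACAAAG was found in 16.3% of the windows, and 8 matches, the highest number seen, in 2 windows (0.00598%), that of Mobp among them. Both strands were searched, the motifs were chosen after the sequences had been seen, and the Mbp, Mobp and Cldn11 windows held no CTGGCAC. The E-box CANNTG was in 65.5% of all windows, in those of Mag, Mal, Mobp and Cnp and in 1 of the 2 of Mbp. A single ACAAAG match also lay in the windows of Mag and Cnp and in 1 window of Mbp. The start sites of the RefSeq table for Mag and Mobp lie inside the annotated gene, so these sequences were printed only up to the outer limit of the gene or the end of the last match. A match describes the letters alone, and 6 of the 7 genes had a window.

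All 7 genes gave bright signals in every frontal lobe piece. Values are log2 intensity after normalisation between arrays, on which 1 unit is a doubling, and each gene is compared only with itself. Mbp lay between 13.31 and 13.95 over the 39 arrays, Mog between 9.15 and 11.07, Mag between 10.19 and 11.55, and Mobp between 11.88 and 13.02. Cnp lay between 11.36 and 12.79, Cldn11 between 10.76 and 12.50, and Mal between 10.18 and 11.52. From the lowest to the highest array this is 3.78-fold for Mog, 3.34-fold for Cldn11, 2.69-fold for Cnp, 2.56-fold for Mag, 2.54-fold for Mal, 2.20-fold for Mobp and 1.57-fold for Mbp. Vehicle animal 3 of experiment C was the highest array for 6 of the 7 genes. Mbp was highest in vehicle animal 1 and in animal 3 at 1 mg/kg of the same experiment, with equal values. In a piece of tissue, fewer oligodendrocytes and less RNA per oligodendrocyte cannot be told apart.

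By their main probe sets these genes varied more from piece to piece than most, apart from Mbp. The SD over arrays was larger than that of 90.3% of the tested probe sets for Mog, 78.0% for Cnp, 75.1% for Mag, 74.7% for Cldn11, 70.2% for Mal and 59.7% for Mobp. The SD of Mbp was 0.145, larger than that of 11.6% of probe sets. The further probe sets varied more. Their SD was larger than that of 95.3% of probe sets for Mbp, 96.0% for Mobp-c, 87.6% for Mobp-b, 94.5% for Cldn11 and 88.6% for Cnp. Apart from Mobp-b, each of these had its lowest value on the array that stands apart. The next values are again those of the main Mbp probe set. Mbp was among the 5 brightest probe sets on 15 of the 39 arrays, and quantile normalisation gives the top ranks nearly the same value on every array. With arrays scaled to equal medians alone, its SD was 0.212, larger than that of 38.1% of probe sets. The fold range of Mbp is therefore a low reading.

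**Figure D1:**
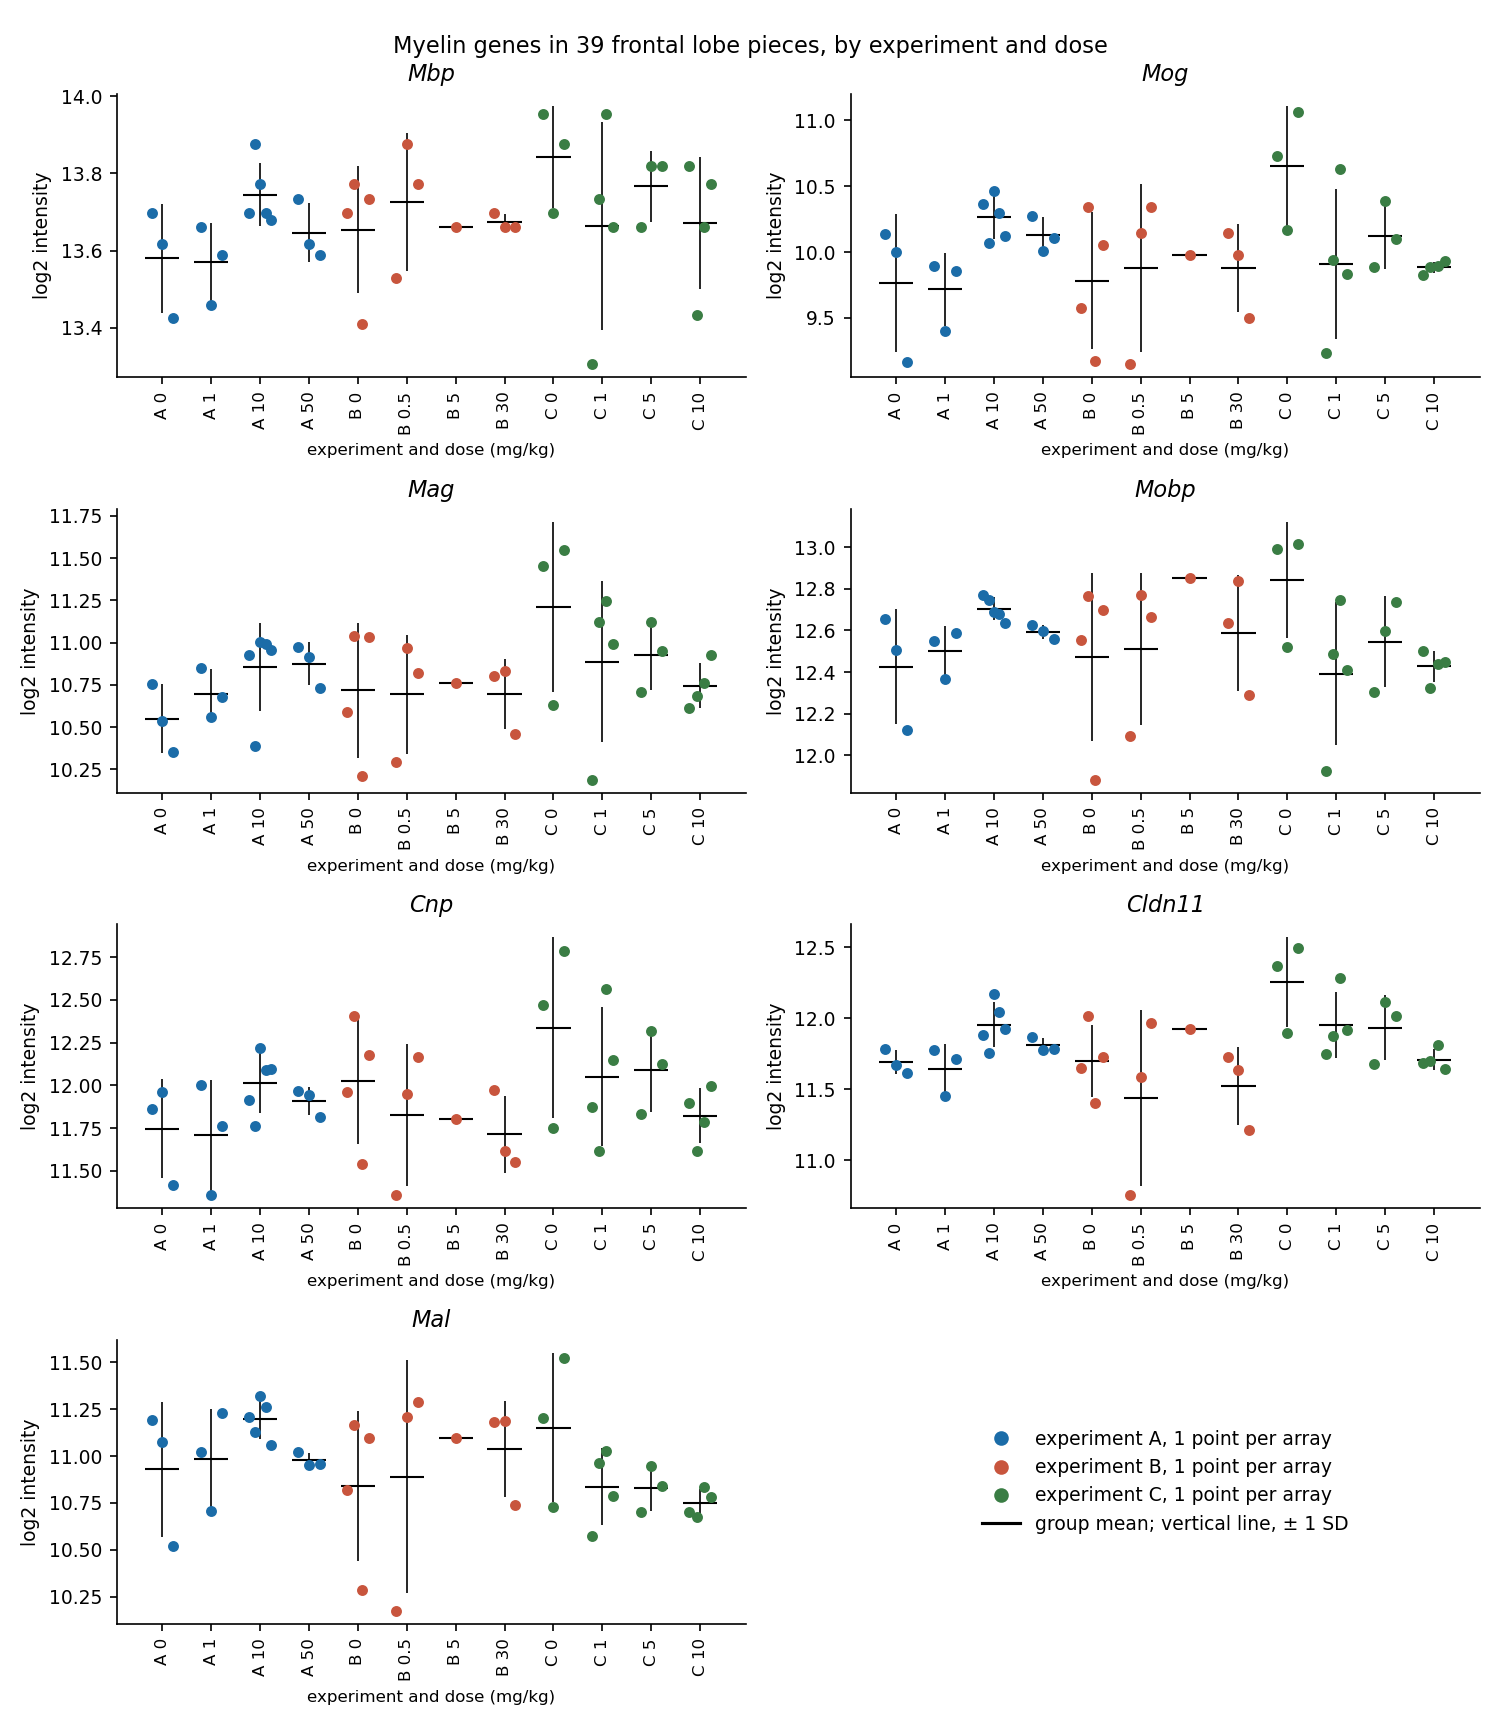
Log2 intensity of the 7 genes by experiment and dose (0 is vehicle). Points are arrays, horizontal lines group means and vertical lines ± 1 SD. The vehicle group of experiment C has the highest mean for Mbp, Mog, Mag, Cnp and Cldn11, and ordered group means step by less than the within-group SD except once, for Cldn11.

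Levels are given next for each gene in all 12 groups, as mean ± SD over the animals listed above. Steps between neighbours in the order of these means are given too. Ordering splits the spread of the means over many steps, so small steps do not show that the outer groups are alike. The 5 mg/kg group of experiment B has 1 animal and no SD, and its array had the lowest median intensity before scaling, 112. At 1 mg/kg in experiment C the means without the array that stands apart (n = 3) were 10.13 ± 0.43 for Mog, 11.12 ± 0.13 for Mag, 13.78 ± 0.15 for Mbp and 12.55 ± 0.18 for Mobp. They were 12.11 ± 0.48 for Cnp, 12.03 ± 0.23 for Cldn11 and 10.93 ± 0.13 for Mal, all above the means of the 4 animals given below.

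Mog encodes myelin oligodendrocyte glycoprotein, which appears late in maturation. In experiment A it averaged 9.77 ± 0.53 with vehicle, 9.72 ± 0.28 at 1 mg/kg, 10.26 ± 0.17 at 10 mg/kg and 10.13 ± 0.14 at 50 mg/kg. In experiment B the means were 9.78 ± 0.52 with vehicle, 9.88 ± 0.64 at 0.5 mg/kg and 9.88 ± 0.34 at 30 mg/kg, while the 5 mg/kg animal had 9.98. In experiment C they were 10.65 ± 0.45 with vehicle, 9.91 ± 0.57 at 1 mg/kg, 10.12 ± 0.25 at 5 mg/kg and 9.88 ± 0.04 at 10 mg/kg. Ordered by mean, no 2 neighbouring groups differed by as much as the SD within groups, 0.40, and the widest step, 0.39, lay below the vehicle group of experiment C. These 2 values are nearly equal. The SD includes the array that stands apart, and the SD of its own group was 0.57 with it and 0.43 without it. The lowest mean was that of 1 mg/kg in experiment A.

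Mag encodes myelin-associated glycoprotein, an adhesion molecule that faces the axon. It averaged 10.55 ± 0.20 with vehicle, 10.70 ± 0.15 at 1 mg/kg, 10.85 ± 0.26 at 10 mg/kg and 10.87 ± 0.13 at 50 mg/kg in experiment A. It averaged 10.72 ± 0.40 with vehicle, 10.69 ± 0.35 at 0.5 mg/kg and 10.70 ± 0.21 at 30 mg/kg in experiment B, where the 5 mg/kg animal had 10.76. In experiment C the means were 11.21 ± 0.50 with vehicle, 10.89 ± 0.48 at 1 mg/kg, 10.92 ± 0.21 at 5 mg/kg and 10.75 ± 0.14 at 10 mg/kg. The lowest and the highest of the 12 means were both vehicle groups, of experiments A and C. Every step between neighbours in the order was smaller than the within-group SD of 0.31.

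Mbp averaged 13.58 ± 0.14 with vehicle, 13.57 ± 0.10 at 1 mg/kg, 13.74 ± 0.08 at 10 mg/kg and 13.65 ± 0.08 at 50 mg/kg in experiment A. In experiment B it averaged 13.65 ± 0.16 with vehicle, 13.73 ± 0.18 at 0.5 mg/kg and 13.67 ± 0.02 at 30 mg/kg, with 13.66 in the 5 mg/kg animal. In experiment C it averaged 13.84 ± 0.13 with vehicle, 13.66 ± 0.27 at 1 mg/kg, 13.77 ± 0.09 at 5 mg/kg and 13.67 ± 0.17 at 10 mg/kg. Neighbouring means lay within 0.08 of each other, below the within-group SD of 0.15.

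Mobp, in the same compact membranes, averaged 12.43 ± 0.28 with vehicle, 12.50 ± 0.12 at 1 mg/kg, 12.70 ± 0.05 at 10 mg/kg and 12.59 ± 0.03 at 50 mg/kg in experiment A. In experiment B the means were 12.47 ± 0.40 with vehicle, 12.51 ± 0.37 at 0.5 mg/kg and 12.59 ± 0.28 at 30 mg/kg, while the 5 mg/kg animal had 12.85. In experiment C they were 12.84 ± 0.28 with vehicle, 12.39 ± 0.34 at 1 mg/kg, 12.55 ± 0.22 at 5 mg/kg and 12.43 ± 0.07 at 10 mg/kg. No step between neighbours reached the within-group SD of 0.25. The lowest mean, at 1 mg/kg in experiment C, includes the array that stands apart.

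Cnp encodes the phosphodiesterase that keeps cytoplasmic channels in myelin open. Its means were 11.75 ± 0.29 with vehicle, 11.71 ± 0.33 at 1 mg/kg, 12.01 ± 0.18 at 10 mg/kg and 11.91 ± 0.08 at 50 mg/kg in experiment A. They were 12.02 ± 0.37 with vehicle, 11.82 ± 0.42 at 0.5 mg/kg and 11.71 ± 0.23 at 30 mg/kg in experiment B, where the 5 mg/kg animal had 11.80. They were 12.34 ± 0.53 with vehicle, 12.05 ± 0.41 at 1 mg/kg, 12.09 ± 0.25 at 5 mg/kg and 11.82 ± 0.16 at 10 mg/kg in experiment C. All steps were smaller than the within-group SD of 0.31.

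Cldn11 averaged 11.69 ± 0.09 with vehicle, 11.64 ± 0.17 at 1 mg/kg, 11.96 ± 0.16 at 10 mg/kg and 11.81 ± 0.05 at 50 mg/kg in experiment A. In experiment B it averaged 11.70 ± 0.25 with vehicle, 11.44 ± 0.62 at 0.5 mg/kg and 11.52 ± 0.27 at 30 mg/kg, with 11.92 in the 5 mg/kg animal. It averaged 12.25 ± 0.32 with vehicle, 11.96 ± 0.23 at 1 mg/kg, 11.93 ± 0.23 at 5 mg/kg and 11.71 ± 0.07 at 10 mg/kg in experiment C. Here the vehicle group of experiment C stood 0.30 above its neighbour, 10 mg/kg in experiment A, against a within-group SD of 0.26. This was the only step in the 7 orders that exceeded that SD.

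Mal averaged 10.93 ± 0.36 with vehicle, 10.99 ± 0.26 at 1 mg/kg, 11.20 ± 0.10 at 10 mg/kg and 10.98 ± 0.04 at 50 mg/kg in experiment A. In experiment B it averaged 10.84 ± 0.40 with vehicle, 10.89 ± 0.62 at 0.5 mg/kg and 11.04 ± 0.26 at 30 mg/kg, with 11.10 in the 5 mg/kg animal. In experiment C it averaged 11.15 ± 0.40 with vehicle, 10.84 ± 0.20 at 1 mg/kg, 10.83 ± 0.12 at 5 mg/kg and 10.75 ± 0.07 at 10 mg/kg. Mal was highest at 10 mg/kg in experiment A and lowest at the same dose in experiment C, and no step reached the within-group SD of 0.29.

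The main question of the design is whether chlorpyrifos changed these genes 96 hours after the dose. With experiment as a term in the fit, no probe set of the 7 genes passed the test at any dose. None of the 12 had an unadjusted p under 0.05 at any of the 6 doses, in the trend with log2(dose + 1) or in the test for a change at any dose. The largest change among the 7 genes was that of Mog at 1 mg/kg, -0.36 ± 0.22 (SE; 95% interval -0.81 to 0.09; adjusted p = 1.00, limma). At the highest dose, 50 mg/kg, Mog changed by 0.02 (interval -0.59 to 0.63), Mbp by -0.03 (-0.25 to 0.19), Mobp by -0.03 (-0.42 to 0.36) and Cldn11 by -0.06 (-0.47 to 0.34). The intervals of the other 3 were -0.35 to 0.55 for Mag, -0.51 to 0.41 for Cnp and -0.55 to 0.31 for Mal. Changes inside these intervals could not be told from none with these 39 arrays.

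Over all 11106 probe sets, 0% were called at 0.5, 1, 5, 10 or 30 mg/kg, for the trend or for a change at any dose, and 0.018% (2) at 50 mg/kg, so the count of 0 among the members is the background count. The direction at 1 mg/kg was lower for all 12 probe sets, with a median change of -0.16, where 52.0% of all probe sets were lower and their median was -0.01. The 12 probe sets read 7 genes that varied together, so they are not separate observations. Without the array that stands apart in experiment C, 10 of 12 were lower and the median was -0.06. Without experiment C as a whole, 6 of 12 were lower and the median was 0.01. At 10 mg/kg 10 of 12 were lower (median -0.07), at 50 mg/kg 10 (-0.06), at 30 mg/kg 5 (0.02), at 5 mg/kg 7 (-0.01) and at 0.5 mg/kg 7 (-0.02). Leaving out vehicle animal 1 or 3 of experiment C brought the median at 1 mg/kg to -0.09 and -0.07, and at 10 mg/kg turned it to 0.01 and 0.03. The median at 10 mg/kg was -0.43 without experiment A and 0.28 without experiment C. The direction at the other doses also hung on single arrays. Without vehicle animal 3 of B, 11 of 12 were lower at 0.5 mg/kg (median -0.18) and all 12 at 30 mg/kg (-0.14). At 50 mg/kg all 12 were lower without vehicle animal 4 of A (-0.21), 6 without vehicle animal 3 of C (0.02) and 0 without experiment C (0.16). Only experiment A had this dose, and against its own vehicle animals all 12 were higher there (median 0.16). The pooled sign at 50 mg/kg is thus opposite to that of the only experiment with this dose. The fit with experiment as a term takes the change at a dose to be the same in each experiment. At 5 mg/kg 1 of 12 was lower without vehicle animal 3 of C (0.10) and 2 without its vehicle animal 1 (0.05).

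**Figure D2:**
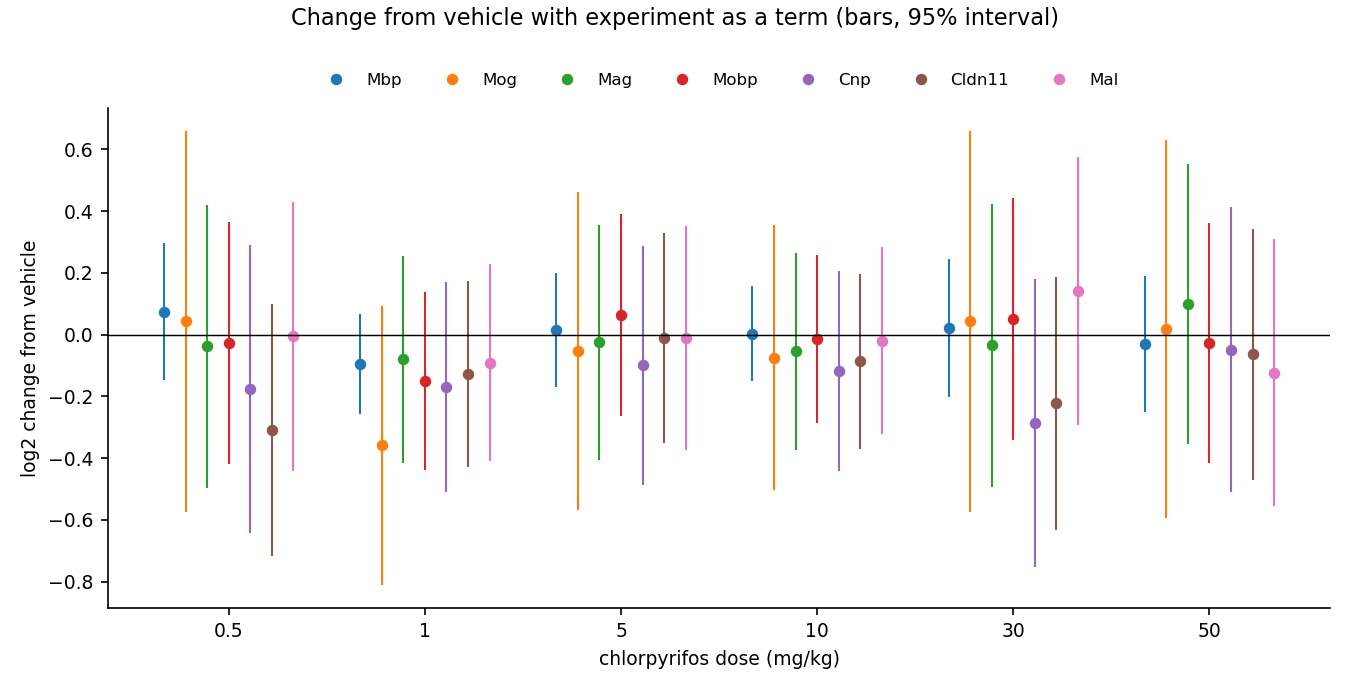
Change of the 7 genes from vehicle on the log2 scale at each dose, with experiment as a term in the fit. Points are the fitted changes and bars 95% intervals; each bar crosses 0, and at 1 mg/kg all 7 points lie below it.

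Within the experiments no member was called in any of the 9 comparisons. The share of all probe sets called was 0% at each dose in C. In A it was 0%, 0.009% and 0.036% from the lowest to the highest dose, and in B 0%, 0.018% and 0%. In experiment A all 12 probe sets were higher than vehicle at 10 mg/kg (median 0.27) and 50 mg/kg (median 0.16), and at 1 mg/kg 6 were. In experiment C all 12 were lower at every dose used, with medians of -0.42 at 1 mg/kg, -0.29 at 5 mg/kg and -0.49 at 10 mg/kg. The 3 comparisons in A share their vehicle animals, and so do the 3 in B and the 3 in C, so these counts are not independent of each other. Nor are the 12 probe sets, which read 7 genes that varied together from array to array, as described below. In experiment B, 7 of 12 were higher at 0.5 mg/kg, 9 at 5 mg/kg and 7 at 30 mg/kg. Vehicle animal 3 decided this direction, and without it 11, 7 and 10 of 12 were lower, with medians of -0.15, -0.02 and -0.12.

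The 10 mg/kg dose of experiment C is described array by array. Mog read 10.73, 10.17 and 11.07 in the 3 vehicle animals and 9.82, 9.89, 9.89 and 9.93 in the 4 animals at 10 mg/kg. All treated animals lay below all vehicle animals and close to each other, and the vehicle animals were widely spread. The change was -0.77 ± 0.28 (SE), which is 0.586 times the vehicle level (adjusted p = 0.580, limma).

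Cldn11 read 12.37, 11.90 and 12.50 with vehicle and 11.68, 11.70, 11.81 and 11.64 at 10 mg/kg, again without overlap. Its change was -0.54 ± 0.18 (SE; adjusted p = 0.553, limma). Mobp read 12.99, 12.52 and 13.02 with vehicle and 12.50, 12.32, 12.44 and 12.45 at 10 mg/kg. The groups only just failed to touch, and the change was -0.42 ± 0.18 (SE; adjusted p = 0.725, limma). Mobp-b read 11.33, 11.24 and 11.39 with vehicle and 10.32, 10.61, 10.33 and 10.76 at 10 mg/kg. This is the largest change of the 12 probe sets, -0.82 ± 0.24 (SE; adjusted p = 0.553, limma).

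In the other 4 genes the groups overlapped. Cnp read 12.47, 11.75 and 12.79 with vehicle against 11.90, 11.62, 11.78 and 12.00 at 10 mg/kg. Mag read 11.45, 10.63 and 11.55 against 10.61, 10.68, 10.76 and 10.93. Vehicle animal 2 was the low array of its group for both genes and lay within the range of the treated animals, as it did for Mal (11.21, 10.73 and 11.52 against 10.70, 10.68, 10.84 and 10.78). For Mbp the values were 13.95, 13.70 and 13.88 against 13.82, 13.43, 13.66 and 13.77.

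Of the 12 probe sets, 6 were lower at 10 mg/kg in experiment C with an unadjusted p under 0.05 (Mog, Mag, Cnp, Cldn11, Mobp and Mobp-b), against 3.27% of all probe sets. The 4 without overlap compare with 2.98% of all probe sets. As the members varied together, neither count is one of separate observations. The count of 6 was 1 without vehicle animal 3 (Mobp-b), 3 without vehicle animal 1 and 9 without vehicle animal 2. Leaving out vehicle animal 3 brought the median change from -0.49 to -0.34, leaving out vehicle animal 2 brought it to -0.74, and without the 3 first-repeat arrays it was -0.35 with 11 of 12 lower. At 1 mg/kg in the same experiment, 4 probe sets were lower with an unadjusted p under 0.05 (Mog, Mobp, Mobp-c and the further probe set of Mbp; 3.17% of all), and no probe set was free of overlap (2.21% of all). Without the array that stands apart, none of the 12 had an unadjusted p under 0.05 by limma (3.54% of all lower), and the same held without vehicle animal 3 (2.46%). Without that array the median at 1 mg/kg was -0.22 with all 12 lower, and without vehicle animal 3 it was -0.24. At 5 mg/kg the median was -0.16 without vehicle animal 3 and -0.54 without vehicle animal 2.

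In experiment A the vehicle animals were lower on average than those at 10 and 50 mg/kg for all 7 genes. Mog read 10.13, 10.00 and 9.16 with vehicle and 10.37, 10.07, 10.46, 10.29 and 10.12 at 10 mg/kg. Vehicle animal 4 was the low array, and without it the median change over the 12 probe sets fell from 0.27 to 0.14 at 10 mg/kg and from 0.16 to 0.03 at 50 mg/kg, where 5 of 12 were then lower. The same array was the lowest vehicle array of experiment A for all 7 genes. Mobp read 12.65, 12.50 and 12.12 with vehicle and 12.77, 12.75, 12.69, 12.68 and 12.63 at 10 mg/kg, so vehicle animal 2 lay inside the treated range. At 10 mg/kg, 2 of 12 probe sets (Mobp-b and the further one of Mbp) were above vehicle without overlap, against 2.12% of all probe sets. None were higher with an unadjusted p under 0.05, against 1.71% of all.

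**Figure D3:**
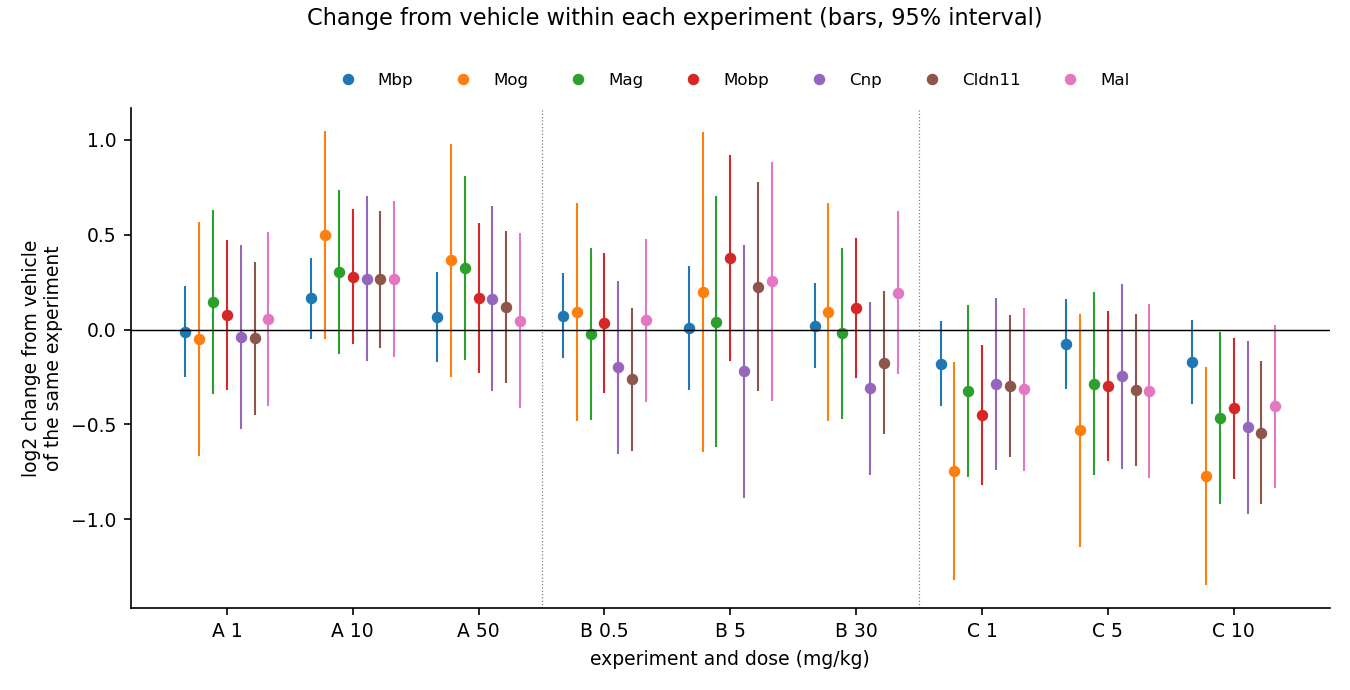
Change of the 7 genes from the vehicle animals of the same experiment, on the log2 scale. Points are fitted changes and bars 95% intervals. All points lie above 0 at 10 and 50 mg/kg in A and below 0 at all 3 doses of C that were used.

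Experiments A and C both used 1 and 10 mg/kg, and the difference of their effects was tested directly. At 10 mg/kg it was positive, A above C, for all 12 probe sets with a median of 0.78. Mog differed by 1.27 ± 0.39 (SE; interval 0.47 to 2.06; adjusted p = 0.600, limma) and Cldn11 by 0.81 ± 0.26 (SE; adjusted p = 0.607, limma). Unadjusted, 9 of 12 were under 0.05 in this direction, against 3.71% of all probe sets, but no probe set of the 11106 was called (0%). At 1 mg/kg the median difference was 0.49, none of the 12 was under 0.05 unadjusted, and 0% of all were called. That median was 0.19 without the array that stands apart and 0.29 without vehicle animal 3 of C. At 5 mg/kg, shared by B and C, 10 of 12 were higher in B, 2 with an unadjusted p under 0.05 (Mobp and Mobp-b; 4.9% of all in that direction), and 0% of all were called, with a single animal in B.

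The 3 vehicle groups were compared with each other, since the direction within an experiment depends on them. By the moderated F test 7.8% of all probe sets were called and 1 of the 12, Mobp-b (adjusted p = 0.0248, limma). A count of 1 in 12 is near that background share. The main Mobp probe set and Mobp-c were not called, and Mobp-c averaged 11.72 in vehicle C, 11.64 in vehicle B and 11.59 in vehicle A. This probe set read 10.73, 10.66 and 10.46 in the vehicle animals of experiment A. In experiment B it read 10.36, 10.78, 9.63 and 10.60, and in experiment C 11.33, 11.24 and 11.39. All 3 animals of C lay above all 7 of A and B. Of all probe sets, 12.75% were higher in vehicle C than in vehicle B without overlap, and 12.2% higher than in vehicle A. The call was lost when vehicle animal 1 or 3 of B was left out (adjusted p = 0.0507 and 0.0667, limma), when vehicle animal 1, 2 or 3 of C was (0.0786, 0.0619 and 0.114), and without the first-repeat arrays (0.0929).

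Against the vehicle animals of experiment B, those of C were higher in 11 of 12 probe sets. Mobp-b (0.98 ± 0.24, SE; adjusted p = 0.00895, limma) and Mog (0.87 ± 0.28, SE; adjusted p = 0.0442, limma) were called, against 10.3% of all probe sets. Mog read 9.57, 10.34, 9.17 and 10.05 in B and 10.73, 10.17 and 11.07 in C, and the groups overlapped. Its call was lost without vehicle animal 1 or 3 of B (adjusted p = 0.115 and 0.164, limma) or vehicle animal 1 or 3 of C (0.114 and 0.238), with animal number as a block (0.0568), without the filter (0.0665) and without the first-repeat arrays (0.128). Against the vehicle animals of A, those of C were higher in all 12 probe sets with a median of 0.54. Of these, 8 had an unadjusted p under 0.05 in that direction (8.78% of all) and 3 did not overlap (Mog, Cldn11 and Mobp-b; 12.2% of all). None was called, where 1.59% of all probe sets were, and without vehicle animal 3 of C the median was 0.35.

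Some markers of other cells moved beside the myelin genes in the vehicle groups, at 10 mg/kg in C and at 50 mg/kg in A. Their part in these results was not tested. The summed intensity of 9 measured of 10 listed neuron markers was 37487 to 39105 in the vehicle animals of C, below the 43664 to 44951 of A and the 41056 to 46317 of B. It was 39582 to 46340 at 10 mg/kg in C, above all vehicle animals of that experiment. The 7 measured of 10 cortical markers summed to 12929 to 16426 in vehicle C, 18052 to 23862 in vehicle A and 10991 to 20438 in vehicle B. The 10 of 10 striatal markers summed to 11232 to 31430 in vehicle C, 4112 to 16945 in vehicle A and 4659 to 22081 in vehicle B, which overlap. At 10 mg/kg in C the cortical sum was 16052 to 21142 and the striatal sum 5803 to 17238, each overlapping vehicle C. Astrocyte markers (9 of 10) summed to 34794 to 38488 in vehicle C and 34320 to 37355 in vehicle A, which overlap, as did the microglial (10 of 10; 6609 to 12395 and 5688 to 11718) and endothelial ones (8 of 10; 3990 to 4597 and 3866 to 4331). The choroid plexus sum (4 of 6) ran from 640 to 16715 in vehicle C and from 600 to 11911 at 10 mg/kg in C. The endothelial sum was 4596 to 4914 at 10 mg/kg in C, above or level with the vehicle animals. Schwann cell markers (3 of 5) summed to 745 to 1052 in vehicle C and 672 to 1095 in vehicle A. Hypothalamic markers (4 of 4) summed to 408 to 7040 in vehicle C. At 50 mg/kg in experiment A the cortical sum was 11008 to 15944, below all vehicle animals of A, and the astrocyte sum 39489 to 42933, above all of them. There the precursor sum (2 of 3) was 855 to 1065, above the 651 to 790 of vehicle A, and the hypothalamic sum 1115 to 14248 against 415 to 1306. At 10 mg/kg in A the cortical sum was 17226 to 23483, the astrocyte sum 36714 to 40132 and the choroid plexus sum 709 to 14498, all overlapping vehicle A. Cspg4, Cd68, Gpr6, Hcrt, Kl and Prx had means under the filter.

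The 7 genes rose and fell together from piece to piece. Over the 39 arrays all 21 pairs had a positive Pearson r, from 0.57 (Mbp with Cldn11) to 0.88 (Mobp with Mal), with a median of 0.77. Spearman's rho ran from 0.52 to 0.84, with a median of 0.68. All 21 had an adjusted permutation p below 0.05 by either measure, the highest being 0.00024 for r and 0.00079 for rho (100000 resamples). Leaving out the 2 arrays farthest from the median of the first gene gave 0.50 to 0.86, with a median of 0.71. The arrays share tissue, platform and normalisation, and each r is across animals, not within cells.

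The relation was present within each experiment and with the means of the dose groups removed. Within experiment A (14 arrays) the 21 values ran from 0.38 to 0.91 with a median of 0.77. Within B (11 arrays) they ran from 0.57 to 0.96 with a median of 0.83, and within C (14 arrays) from 0.65 to 0.94 with a median of 0.84. With the 12 group means removed the median was 0.80, and with arrays scaled to equal medians alone it was 0.72, the lowest pair then having 0.32. Without the array that stands apart the median was 0.75. Mog stood close to every other gene, with r from 0.79 with Mbp to 0.86 with Mobp, and the pair of Mag and Mbp in experiment A was the weakest within an experiment, 0.38.

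**Figure D4:**
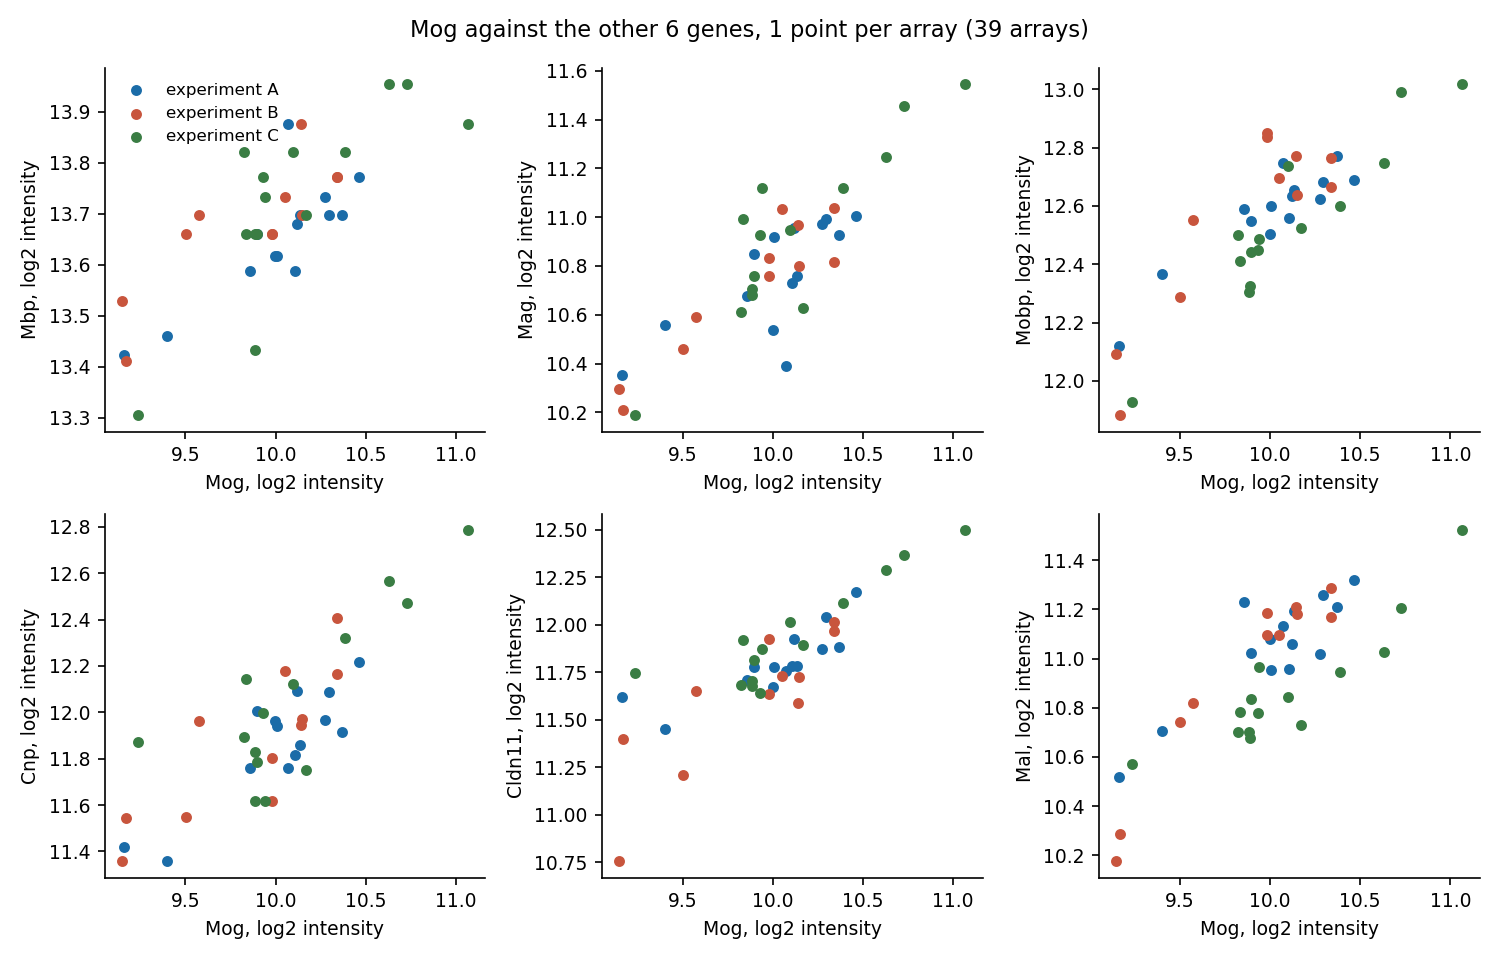
Log2 intensity of Mog against that of each of the other 6 genes, 1 point per array, coloured by experiment. In each panel the points climb from the lower left to the upper right in all 3 experiments, with r from 0.79 to 0.86 over the 39 arrays.

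Genes whose pattern was most like that of the 7 were ranked by their mean r with them over the 39 arrays, among 7996 genes. The highest were Cd9, a tetraspanin (0.78), Csrp1, an actin-associated LIM protein (0.78), Gsn, which encodes the actin-severing gelsolin (0.76), Gna12, a G protein subunit (0.75) and Slc44a1, a choline transporter (0.75). They were followed by Gltp, a glycolipid transfer protein (0.73), Myo1d, an unconventional myosin (0.72), Rnf130 (0.72), Evi2a (0.72) and Adpgk, an ADP-dependent glucokinase (0.72). The median over all genes was 0.02, and 149 genes (1.86%) had a mean r over 0.5.

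Other genes of the oligodendrocyte lineage, from a list of 78, were measured by 50 tested probe sets, 1 per gene. Listed genes without a probe set of that single symbol, among them Olig2, Opalin, Ermn, Omg, Fa2h and Tf, are not analysed here. None of the 50 was called at any dose, for the trend or for a change at any dose, by limma. An unadjusted p under 0.05 was found for 4 at 0.5 mg/kg, 2 at 1 mg/kg, 1 at 30 mg/kg, 3 at 50 mg/kg and 0 at 5 and 10 mg/kg. Over all probe sets the shares were 7.62% at 0.5 mg/kg, 2.54% at 1 mg/kg, 9.25% at 30 mg/kg, 7.99% at 50 mg/kg, 2.48% at 5 mg/kg and 2.68% at 10 mg/kg, so the list's counts were near or below the background. At 10 mg/kg in experiment C, 48 of 50 were lower than vehicle with a median of -0.46, 24 with an unadjusted p under 0.05, where 49.5% of all probe sets were lower and 3.27% were lower with such a p. Without vehicle animal 3 of C the list had 43 lower, a median of -0.24 and 6 lower with such a p (1.94% of all), and without vehicle animal 1 it had 45, -0.40 and 13 (2.16% of all). Many of the listed genes varied with the members (27 of 50 had a mean r over 0.5), so these counts are not of separate observations. Between the vehicle groups 6 of 50 (12.0%) were called, against 7.8% of all probe sets. They were Nfasc, the neurofascin of nodes and paranodes (adjusted p = 0.0100, limma), Rtn4, which encodes the growth inhibitor Nogo (0.0212), Tnr, the matrix protein tenascin-R (0.0375), Cryab, a small heat shock protein (0.0392), Elovl1, a fatty acid elongase (0.0463), and Lpar1, a lysophosphatidic acid receptor (0.0499). These calls did not share a direction. In vehicle C against vehicle B, Tnr (-1.30) and Rtn4 (-0.35) were lower, while Nfasc (0.48) and Elovl1 (0.51) were higher. Elovl1 was not called in that comparison (adjusted p = 0.103, limma), where 2 of the 50 were called lower and 2 higher. The directions of Cryab and Lpar1 are not given here. Of the 50 genes, 39 were higher in that comparison and 11 lower.

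These lineage genes did not all follow the 7 myelin genes. Of the 50, 27 had a mean r with them over 0.5, and the median was 0.53. Among transcription factors Olig1 had 0.70 and Myrf, a driver of myelin genes, 0.63, while Sox10 had 0.38. Among lipid enzymes Ugt8, which makes galactocerebroside, had 0.63 and Aspa, which splits N-acetylaspartate, 0.47. The gap junction gene Gjb1 had 0.62 and Enpp2, autotaxin, 0.55. The 5 measured genes of precursor cells had a median of 0.25, and Pdgfra, the receptor that marks precursors, had -0.01. Tnr had -0.34, the lowest of the 50.

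Several genes had more than 1 probe set, and these moved together over the arrays. The r between the 2 probe sets was 0.67 for Mbp, 0.77 for Cnp and 0.72 for Cldn11, and the 2 further probe sets of Mobp had 0.74 (Mobp-b) and 0.72 (Mobp-c) with the main probe set. Without the array that stands apart these were 0.69 for Mbp, 0.87 for Cnp, 0.81 for Cldn11 and 0.79 for Mobp-c. On that array the further Mbp probe set read 10.34 and the main probe set 13.31, a difference of -2.97 against a median of -0.32 over the 39 arrays. The same difference was -3.34 for Mobp-c (median -0.86), -3.32 for Cldn11 (median -1.81) and -2.41 for Cnp (median -1.26). Relative to the median array these probe sets were 6.27-fold, 5.60-fold, 2.86-fold and 2.22-fold low. Mobp-b was not, its lowest difference of -2.25 being in vehicle animal 3 of experiment B.

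Next lowest for Mbp and for Mobp-c was 10 mg/kg animal 4 of experiment C (-1.08 and -1.47). The differences were set against the 3′ to 5′ ratios of actin and GAPDH, 10 relations in all, chosen after the data had been seen. With the GAPDH ratio, Pearson r was -0.87 for Mbp and -0.88 for Mobp-c, with adjusted permutation p of 0.0025 and 0.0005. Spearman's rho was -0.25 and -0.36 (adjusted permutation p = 0.215 and 0.135). Without the 2 arrays of the most distant GAPDH ratio, r was -0.41 and -0.44, and within experiments A and B it ran from -0.05 to 0.27, while within C, which holds that array, it was -0.95 for both. With the actin ratio r was -0.83 for Mbp, -0.42 without the 2 most distant arrays, -0.51 within A and -0.34 within B. For Mobp-c it was -0.74, 0.00 without them, -0.08 within A and 0.05 within B. The adjusted permutation p of r was 0.00327 and 0.0201, and rho was -0.25 and -0.01 (adjusted permutation p = 0.215 and 0.950). For Cnp, Cldn11 and Mobp-b, r with the GAPDH ratio was -0.73, -0.44 and 0.40 (adjusted permutation p = 0.00362, 0.0279 and 0.0184). Without the 2 arrays of the most distant GAPDH ratio it was -0.19, 0.39 and 0.40, so the further probe sets did not share a direction. With the actin ratio their r was -0.50, -0.53 and 0.06. The main probe sets, on which the results above are based, were less marked on that array, where Mbp and Mag had their lowest values of the series.

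**Figure D5:**
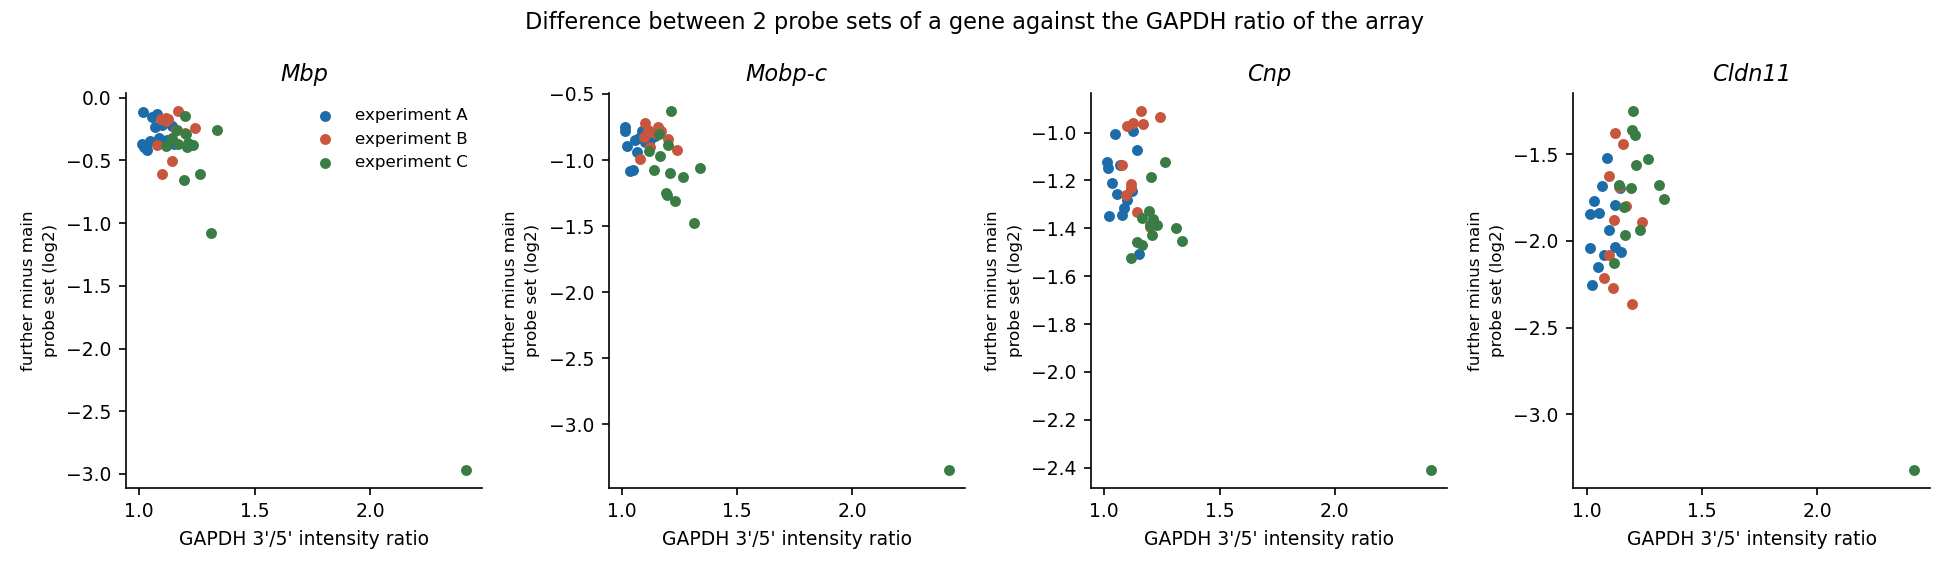
Difference in log2 intensity between a further probe set and the main probe set of 4 genes, against the GAPDH 3′ to 5′ ratio of the array, 1 point per array. The array at a ratio of 2.42 has the lowest difference in each panel, and the other 38 lie between ratios of 1.01 and 1.34.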

How the data were processed

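Total RNA from the frontal lobe of each rat was hybridised to an Affymetrix rat array. The authors deposited 1 intensity per probe set and array, on a linear scale. The sources used here do not name the summarization software. Array medians ran from 112 to 286. The lowest was that of the 5 mg/kg animal of experiment B, and the next lowest among the arrays used was 229. Precision is limited by how many arrays a group has. Of 46 arrays, 39 were used, those with a median log2 correlation of at least 0.5 with the others.

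After scaling to equal medians, a floor was set at the 5th percentile (an intensity of 11.0), and values were log2 transformed and quantile normalised. A mean below the 30th percentile (6.90) removed a probe set, as did being 1 of 57 controls. Of 15866 probe sets 12783 carry 1 symbol, 312 several and 2771 none. limma 3.58.1 (R 4.3.3; trend=TRUE) was fitted with experiment and dose as terms, with log2(dose + 1), and with the 12 groups for comparisons within experiments. Tests were two-sided, with Benjamini-Hochberg adjustment over 11106 probe sets at 0.05. All groups shared 1 estimate of the spread, which gives the group of 1 animal its test. Correlations between members used permutation tests. Figures used matplotlib 3.10.9 under python 3.11.15. The fits were tested on simulated data.

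All 7 genes were named by their brightest probe set, with the 10 genes of highest mean r and listed lineage genes. The members and lists were chosen with earlier results of these data known. Alternatives were scaling alone, no filter, a floor of 16, array weights, animal number as a block, and leaving out the first-repeat arrays, an experiment or each array in turn.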

Additional observations from a re-analysis of the deposited data

Results flagged for a closer look

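Among the 12 probe sets and the 4 groups of 4 or 5 animals, 48 sets of values were searched for an array far from its group, and 4 held one. Chance alone gives such a result in about 1 of 20 sets. Mag at 10 mg/kg in experiment A read 10.389 in animal 2, where the other 4 animals began at 10.928. The same animal was within the group's range for Mbp, where it was the highest. The further Mbp probe set read 12.806 in vehicle animal 3 of experiment B, with the next animal at 13.460. This animal was also the lowest of its group for all 7 genes. In animal 1 at 1 mg/kg of experiment C, Mobp-c read 8.582 against 11.340 in the next animal, and the further Mbp probe set 10.338 against 13.124. That array also had the highest actin and GAPDH 3′ to 5′ ratios of the series, 4.72 and 2.42. The part of the ratio in these 2 values was not tested.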

How the results depend on the processing

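At no dose was a member called under any of the 10 other settings or the 39 that left out 1 array. None was called for the trend, within an experiment or for a difference between experiments either. Those tests were not run in the settings that left out an experiment. Of 4928 values of 105 member changes under these settings, 216 had another sign than the reported value, none with an adjusted p under 0.05, and the largest reported change among them was 0.309 in size. The counts between vehicle groups did move. The count of members called between the 3 vehicle groups, 1 as reported, was 2 with scaling alone, 4 with array weights, 0 without the first-repeat arrays, and 2 when experiment C lost both animal 1 at 1 mg/kg and animal 4 at 10 mg/kg, a setting chosen after seeing the data. Leaving out 1 array at a time gave 0 to 3. Between the vehicle animals of C and B the count was 2 as reported, 1 without the filter, 1 without the first-repeat arrays and 1 to 4 with 1 array left out. Between C and A it was 2 with array weights and 0 otherwise. Under the array weights the median change at 10 mg/kg was 0.00 with 6 of 12 lower, and without the first-repeat arrays 0.08 with 2 of 12 lower. The cause of these shifts was not tested. All 21 correlations between members stayed positive under each setting run for them. The 5 mg/kg comparisons of experiment B could not be run without its only animal.

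With animal number as a replicate block the count between C and B was 1 and that between the 3 vehicle groups 1, and no member was called at any dose (0). Averaged over pairs, animals with the same number did not deviate together. Over 44 such pairs the mean correlation was -0.00686 (-0.394 to 0.299, 9 over 0.1), against 0.00228 over 144 pairs of other numbers. A mean over pairs does not show whether single pairs had more than a number in common, and this was not tested.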
